A study of Mus musculus with 18 samples.

Results

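Untreated subcutaneous tumours of a pair of mouse lines, CT26-NY-ESO-1 and CT26, were compared by bulk RNA sequencing. The comparison rests on 6 of the 18 libraries of the series, 3 labelled CT26NYESO1_Ctrl and 3 labelled CT26_Ctrl, chosen by their labels alone. CT26 is a colon carcinoma of BALB/c mice, induced by a chemical. The derived line, CT26NYESO1 in the labels, is by its name CT26 carrying NY-ESO-1, a human cancer-testis antigen. The labels give no promoter, vector or clone number for that line. The labels name BALB/cJ and C57BL/6J hosts without assigning them to lines, and they give no age or sex. Tumours were taken on day 14 and no group used for the main comparison received OK-432, a killed streptococcal preparation. Whether the controls received a mock injection is not stated. The 6 matching libraries of tumours that had received OK-432 for 24 hours are set beside the untreated ones where named. The remaining line, LL/2, the Lewis lung carcinoma of C57BL/6 mice, serves only as a reference for single genes.

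A bulk tumour library mixes RNA of tumour cells, blood vessels, fibroblasts and leukocytes. Lines that share an origin can drift apart in culture, and a derived line often descends from few cells. Growth factor receptors signal through Ras and the MAP kinases to immediate targets such as the dual-specificity phosphatases and Sprouty proteins, which feed back on the pathway, and to cyclin D1, which drives entry into the cell cycle. Cdkn2a encodes p16Ink4a and p19Arf, which brake the cell cycle through the Rb and p53 proteins. Type I interferon and interferon-gamma induce overlapping gene sets in tumour cells and leukocytes, antiviral effectors on one side and antigen presentation, guanylate-binding proteins and Cxcr3 chemokines on the other.

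The deposited values are TPM, in which each library sums to 1000000, so depth is unknown. Libraries of the same line correlated at 0.990 to 0.993 across genes and libraries of different lines at 0.890 to 0.903, and genes are not independent replicates. CT26 libraries listed 24036 to 24196 genes above 0 and CT26NYESO1 libraries 24567 to 25520. Whether the 3 libraries of a group are 3 mice is not stated in the labels, so the p-values cover the spread among libraries, part of which may be technical. Of 55291 genes in the table, 15264 reached 1 TPM in at least 3 of the 6 libraries and were tested with limma on log2(TPM + 1). All differences below are CT26NYESO1 minus CT26 on that scale, which understates changes of low genes, and every adjusted p is limma's with Benjamini-Hochberg adjustment over the 15264 genes.

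The labels were checked first. The transgene is human and has no row in the mouse table. The mouse genes of the same family were at or near 0 in every library, with Ctag2 listed at 0 throughout and Ctag2l1 at 1.05 ± 0.621 TPM in CT26 and at 0 in CT26NYESO1 (SD, n = 3). The antigen itself was therefore not measured. H2-Ea, which BALB/c mice express and C57BL/6 mice do not, was at 105, 167 and 356 TPM in the CT26 libraries and at 517, 236 and 372 TPM in the CT26NYESO1 libraries, and it was listed at 0 in all 3 untreated LL2 libraries. H2-Ea was chosen after its values were seen. Of the markers expected of a colon carcinoma, Cdh1, the epithelial cadherin, was at 0.965 and 0.948 TPM, while Vim, the mesenchymal filament vimentin, was at 2309 ± 84.5 and 4447 ± 210 TPM (SD, n = 3 each). Epcam did not reach the level needed for testing. Cdkn2a goes against what is described of the parental line elsewhere, where CT26 is said to carry a deletion of it: the libraries labelled CT26 had 128, 105 and 109 TPM, and those labelled CT26NYESO1 had 1.91, 1.07 and 1.32 TPM. The groups are called by their labels below.

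The lines differed across most of the transcriptome. A call here is an adjusted p under 0.05, and 10060 genes (65.9%) were called, 3217 (21.1%) higher in CT26NYESO1 and 6843 (44.8%) lower. The median difference of all tested genes was -0.20 as deposited and 0 after median-of-ratios scaling, which centres the libraries on one another and under which 4693 genes were called higher and 4767 lower. Higher genes thus made up 32.0% of calls as deposited and 49.6% after scaling. The 82 cytosolic ribosomal protein genes took 9.33% ± 0.634 of all TPM in CT26 and 14.7% ± 0.478 in CT26NYESO1, and the mitochondrially encoded genes took 4.31% ± 0.155 and 6.27% ± 0.357 (SD, n = 3 each). The exact two-sided permutation p was 0.1 for each share, the smallest that 3 against 3 libraries allow. Because so many genes were called, a second threshold was added after the data were seen, a call with a difference of at least 2-fold: 858 genes (5.62%) were higher and 1780 (11.7%) lower. After scaling the numbers were 1172 (7.68%) and 1395 (9.14%), and 858 genes higher and 1395 lower met the threshold on both scales. The direction of a list is given below with its median on both scales. Counts of list members called are to be read beside the shares of all tested genes given here.

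**Figure D1:**
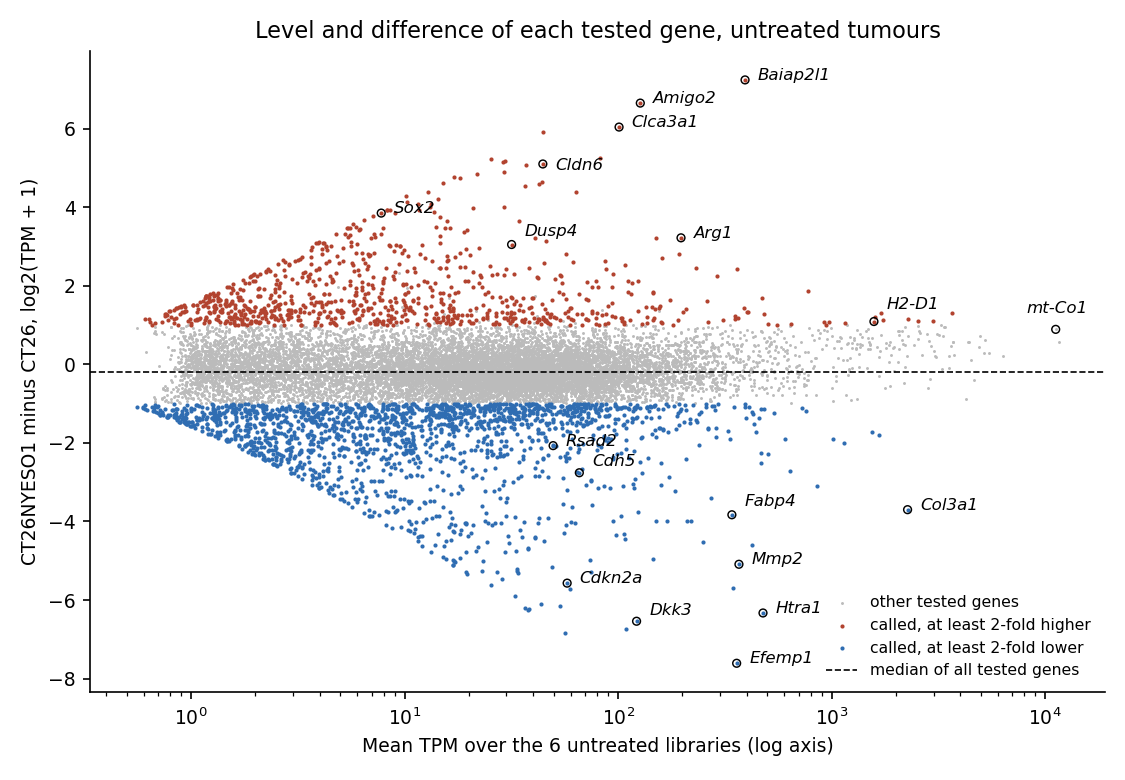
Each point is a tested gene, with its mean TPM over the 6 untreated libraries on a log axis and the difference CT26NYESO1 minus CT26 in log2(TPM + 1). The dashed line is the median of all tested genes at -0.20. Coloured genes were called with at least a 2-fold difference, 858 higher and 1780 lower, and circles mark genes described in the text.

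The 15 largest falls included several genes of secreted proteins. Efemp1, an extracellular matrix glycoprotein of the fibulin family, had 713, 753 and 683 TPM in the CT26 libraries and 2.96, 3.50 and 1.77 TPM in the CT26NYESO1 libraries. Its difference was -7.61 ± 0.17 (SE, adjusted p = 3.55e-08), the largest fall among the genes named by rule. Htra1, a secreted serine protease, went from 938, 1133 and 760 TPM to 11.9, 12.6 and 7.82 TPM, a difference of -6.33 ± 0.20 (adjusted p = 5.72e-07). Groups that do not overlap were a condition of the rule that named both genes. Dkk3, a secreted protein of the Dickkopf family of Wnt modulators, averaged 242 TPM in CT26 and 1.61 in CT26NYESO1 (-6.54). Lrrc17, a secreted leucine-rich repeat protein, differed by -6.73, Ccbe1, which promotes maturation of the lymphatic growth factor VEGF-C, by -6.10, and Pla2g5, a secreted phospholipase, by -5.72. Medag, named for its action in fat cell formation, fell from 680 ± 44.6 to 12.5 ± 3.85 TPM (SD, n = 3 each; -5.70). The other 8 of the 15 largest falls were Rhox2h, Tex13b, Cd200r2, Capn6, Xlr3a, Xlr3c, Cdkn2a and Cox7b2, with differences from -6.83 to -5.33. Xlr3a and Xlr3c, like the Rhox2 genes, are near-identical copies between which reads can be shared.

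The largest rise was in Baiap2l1, an adaptor that links membranes to actin: 756, 814 and 773 TPM in the CT26NYESO1 libraries against 0.610, 5.92 and 11.5 TPM in the CT26 libraries, a difference of 7.24 ± 0.81 (SE, adjusted p = 0.00101). The CT26NYESO1 libraries lay close together while the CT26 libraries spread widely at a low level. Amigo2, a cell adhesion molecule, averaged 253 TPM against 1.78 (6.65), and Clca3a1, a calcium-activated chloride channel regulator, 200 against 2.46 (6.04). Fst, which encodes the activin antagonist follistatin, rose by 5.17, Cldn6, a tight junction claudin of early embryonic epithelium, by 5.10, and Lgals7, a galectin of stratified epithelium, by 5.07. Ptprn (5.26), known from secretory granules of neuroendocrine cells, and the long non-coding RNA Fendrr (5.14) also rose. Obsl1, Rarres1, Col4a5, Vldlr, Sele, Klk10 and Mgp completed the 15, with differences between 4.89 and 4.39. Col4a5 encodes a basement membrane collagen chain and Vldlr a lipoprotein receptor. Sele encodes E-selectin, known from activated endothelium, and was at 20.4, 30.5 and 39.3 TPM in CT26NYESO1 against 0 to 0.552 TPM in CT26, while the endothelial markers described below fell. Sox2, a transcription factor of pluripotent and progenitor cells chosen after its values were seen, was at 10.7, 16.1 and 19.5 TPM in CT26NYESO1 and at 0, 0.113 and 0.241 TPM in CT26 (3.85 ± 0.21, adjusted p = 8.19e-07).

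The low CT26 values of these 15 risen genes were graded by library. Expressed as a percentage of the gene's CT26NYESO1 mean, the median over the 15 genes was 0.651% in CT26 replicate 1, 0.983% in replicate 2 and 2.02% in replicate 3. Replicate 1 was the lowest of the 3 for 14 of the 15 genes and replicate 3 the highest for 11. In the OK-432 libraries of CT26 the same medians were 2.74%, 0.326% and 0.272%. For the 15 largest falls the corresponding medians in the untreated CT26NYESO1 libraries were 0.487%, 0.464% and 0.250%. These genes were chosen for their difference, so the percentages are a description, and their source was not tested.

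The promoter windows of 3 risen genes are shown because these genes had the highest differences; the capitals mark CpG dinucleotides, the sites of DNA methylation in mammals, which was not measured here. The sequences are the 250 bases before the RefSeq start in the GRCm38.p6 table.
Baiap2l1, chr5:144358113-144358362, minus strand: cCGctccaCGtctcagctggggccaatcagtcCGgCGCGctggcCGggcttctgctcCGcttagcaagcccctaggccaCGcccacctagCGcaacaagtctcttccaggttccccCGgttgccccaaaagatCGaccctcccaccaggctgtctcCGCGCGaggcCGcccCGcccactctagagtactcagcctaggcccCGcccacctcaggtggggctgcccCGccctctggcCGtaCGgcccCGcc
Amigo2, chr15:97247288-97247537, minus strand: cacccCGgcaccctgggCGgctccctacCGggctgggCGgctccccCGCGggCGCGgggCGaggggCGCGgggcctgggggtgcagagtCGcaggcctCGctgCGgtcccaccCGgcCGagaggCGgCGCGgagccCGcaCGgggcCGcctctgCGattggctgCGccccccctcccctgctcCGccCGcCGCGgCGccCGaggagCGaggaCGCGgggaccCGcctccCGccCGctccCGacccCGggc
Clca3a1, chr3:144760978-144761227, minus strand: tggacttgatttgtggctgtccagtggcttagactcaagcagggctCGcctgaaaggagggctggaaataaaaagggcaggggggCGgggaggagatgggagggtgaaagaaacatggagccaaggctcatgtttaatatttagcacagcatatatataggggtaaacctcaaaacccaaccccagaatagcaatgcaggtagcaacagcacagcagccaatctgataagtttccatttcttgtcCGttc
The Amigo2 window held 38 CpG dinucleotides, the Baiap2l1 window 21 and the Clca3a1 window 3. The median was 15 over the 10416 tested genes with such a window, and 98.6% of those windows held at least 1 CG on either strand. The 3 windows are a description, and no comparison between sets of genes is drawn from them.

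Growth control genes moved in both directions. Cdkn2a (chr4:89274471-89294653, mm10) differed by -5.57 ± 0.13 (SE, adjusted p = 1.33e-08), and Cdkn2b, its neighbour and the source of the inhibitor p15Ink4b, averaged 17.1 ± 2.54 TPM in CT26 and 0.932 ± 0.197 in CT26NYESO1 (SD, n = 3 each; -3.22). Mtap, the next gene on the other side and chosen after its values were seen, was at 140, 160 and 148 TPM against 172, 189 and 161 TPM. So the low level covered both inhibitors and not this neighbour. In the list of 25 p53 targets and tumour suppressors, 3 were at least 2-fold higher and 4 lower, beside 5.62% and 11.7% of all tested genes. The median was -0.16 as deposited and 0.05 after scaling. The 3 higher genes were direct p53 targets. Cdkn1a, encoding the inhibitor p21, was at 43.7, 40.3 and 53.9 TPM in CT26 and at 189, 190 and 225 TPM in CT26NYESO1 (2.11 ± 0.12, adjusted p = 1.35e-06). Eda2r, a receptor of the TNF receptor family, rose by 2.84 and Phlda3, an inhibitor of Akt, by 1.35. Sesn1, another p53 target, fell by 1.17 and Stk11, the kinase Lkb1, fell by 1.09, and both were under 2-fold after scaling (-0.96 and -0.87).

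Targets of Ras and MAP kinase signalling were mostly higher in CT26NYESO1. Of 24 tested genes in the list of this pathway and of oncogenes, 13 were called higher and 2 lower, 8 of them at least 2-fold higher and 1 lower, and the median was 0.31 (0.53 after scaling). Dusp4, a MAP kinase phosphatase, was at 6.14, 4.82 and 7.47 TPM in CT26 and at 58.6, 53.7 and 59.8 TPM in CT26NYESO1 (3.05 ± 0.13, adjusted p = 2.4e-07). Each CT26NYESO1 library was several times above every CT26 library. Etv4, an ETS transcription factor, rose by 2.27, the feedback inhibitor Spry4 by 2.12 and Fosl1, a component of AP-1, by 1.48. Ccnd1, encoding cyclin D1, averaged 210 ± 23.9 TPM in CT26 and 567 ± 39.3 in CT26NYESO1 (SD, n = 3 each; 1.43). Spry1 went the other way and fell by 2.18. Mki67, a proliferation marker, was at 188, 213 and 213 TPM in CT26 and at 88.0, 79.2 and 70.3 TPM in CT26NYESO1 (-1.36 ± 0.09, adjusted p = 2.8e-06). It was the single member of the 28 cell cycle genes with a 2-fold difference; 4 members were called higher (9 without CT26 replicate 2) and 10 lower, around a median of 0.00 (0.22 after scaling).

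Growth factor receptors and ligands went both ways. Of 31 tested, 10 were called higher and 18 lower, 4 of them at least 2-fold higher and 11 lower, with a median of -0.59 (-0.38 after scaling). Pdgfra, the platelet-derived growth factor receptor alpha, was at 329, 358 and 274 TPM in CT26 and at 17.7, 23.4 and 16.9 TPM in CT26NYESO1 (-3.99 ± 0.14, adjusted p = 2.05e-07). Igf2 (-4.39), Hgf, the ligand of Met (-3.79), and Fgf21 (-3.26) fell as well. The 4 rises were Fgf10 (3.47) and the EGF receptor ligands Tgfa (2.65), Btc (2.52) and Areg (2.08), all of which averaged under 0.4 TPM in CT26. Egfr itself fell by 1.44, from 4.43 to 1.01 TPM on average.

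Among Wnt genes, 12 were tested and 2 were at least 2-fold higher and 4 lower (median -0.55, -0.35 after scaling). Wnt10a rose by 3.37 and Lef1, a transcription factor of the pathway, by 1.36, while Dkk3, Wnt6 (-2.98) and Wnt7b (-2.27) fell. Of 21 tested genes of the Notch, Hedgehog and BMP pathways, 2 were at least 2-fold higher and 8 lower, with a median of -0.80 (-0.58 after scaling). Hes1 (-1.73), a Notch target, and Id1 (-1.52) and Id3 (-1.43), targets of BMP signalling, fell. Bmp2 rose by 1.80 and Id2 by 1.07, and 1 gene was left at 2-fold higher without CT26 replicate 1 or without CT26NYESO1 replicate 3.

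Epithelial and mesenchymal markers did not move as blocks. Of 14 tested epithelial genes, 4 were at least 2-fold higher, namely Cldn6, Krt18 (3.44), Krt20 (2.83) and Muc1 (1.37), and 2 lower, Esrp1 (-1.58) and Jup (-1.25), around a median of 0.03 (0.23 after scaling). Krt18, a simple epithelial keratin, was at 0, 0.338 and 0.269 TPM in CT26 and at 13.8, 13.8 and 8.86 TPM in CT26NYESO1, and it averaged 272 TPM in LL2. Of 24 mesenchymal transition genes, 2 were at least 2-fold higher and 6 lower (median -0.42, -0.20 after scaling). The matrix cross-linking enzyme Lox (-4.00), the transcription factor Snai1 (-2.47), Tgfb2 (-1.99) and Tgfb3 (-1.95) fell, while Cdh11 rose by 1.44, the matrix protein Tnc by 1.18 and Vim by 0.94. Without CT26 replicate 1 the number at least 2-fold higher was 4.

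Hox genes, which hold positional identity in cells of mesenchymal origin, were lower in CT26NYESO1 almost throughout. Of 31 tested, 29 were called lower and none higher, 21 of them at least 2-fold on both scales, and the median was -1.60 (-1.43 after scaling). Hoxc10 was at 35.0, 31.8 and 30.5 TPM in CT26 and at 0.509, 0.480 and 0.490 TPM in CT26NYESO1 (-4.48 ± 0.11, adjusted p = 1.26e-08). Falls were also seen in Hoxb7 (-4.07), Hoxc11 (-3.72), Hoxb9 (-3.53) and Hoxa11 (-3.43), so the largest falls came from several clusters. Hoxc6, which lies in the same cluster as Hoxc10, was at 18.4, 16.2 and 23.3 TPM against 21.5, 23.5 and 20.6 TPM. It was not called as deposited, but was called higher after scaling (0.39, adjusted p = 0.0239) and without CT26 replicate 3 (0.32, adjusted p = 0.024).

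Of 15 tested imprinted genes, which are expressed from 1 parental copy, 6 were at least 2-fold lower and 1 higher (median -0.60, -0.38 after scaling). Peg10 was at 34.5, 36.5 and 30.1 TPM in CT26 and at 0.0935, 0.0993 and 0.0902 TPM in CT26NYESO1 (-4.98 ± 0.12, adjusted p = 1.21e-08). Its neighbour Sgce on chromosome 6 fell by 4.39, and Grb10, an adaptor that restrains insulin receptor signalling, fell by 4.50. Mest fell by 3.90 and Snrpn fell by 2.17, and with Igf2 these are the 6. Slc38a4, an amino acid transporter, rose by 1.95, and without CT26NYESO1 replicate 2 it was 1 of 2 at least 2-fold higher. Of 10 tested genes in the list named for cancer-testis and germline genes, 6 were at least 2-fold lower and none higher (median -1.35, -1.21 after scaling). Besides Xlr3a they were Maged2 (-4.10), Magee1 (-2.83), Magea8 (-1.50), Maged1 (-1.36) and Prame (-1.35). Of these, Maged1, Maged2 and Magee1 are Mage genes that are not confined to the germline, so the list is wider than its name.

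By a fixed rule, 17 genes were listed at 0 TPM in all 3 CT26NYESO1 libraries while reaching 5 TPM in all 3 CT26 libraries, and no gene met the reverse. A listed 0 can be a failed estimate. They included Cox7b2, a testis form of a cytochrome c oxidase subunit, at 39.4, 41.5 and 36.7 TPM in CT26; Cpa4, a carboxypeptidase, at 11.4, 11.7 and 7.96 TPM; and Tex13b, a testis-expressed gene, at 71.0, 85.1 and 70.6 TPM. Rhox2a, Rhox2d, Rhox2f, Rhox2g and Rhox2h, reproductive homeobox genes on the X chromosome, were also among them. Because the Rhox2 copies are nearly identical, the level of any single copy is uncertain, though the 5 named copies were at 0 together. Some of the 17 lay close together, A230057D06Rik with A330076H08Rik on chromosome 7 and 1700024J04Rik with Gm12190 on chromosome 11. Of the others, Mir196a-1 (chr11:96265164-96265265, mm10) lies within the Hoxb cluster, and the processed pseudogene Gm17928 lies inside Cd200r2 (chr16:44867097-44915840), which is not among the 17 and fell by 6.22. Promoter windows of 3 of these genes, drawn as above, are given because their transcripts were listed at 0 in 1 line only.
Rhox2h, chrX:37673278-37673527, minus strand: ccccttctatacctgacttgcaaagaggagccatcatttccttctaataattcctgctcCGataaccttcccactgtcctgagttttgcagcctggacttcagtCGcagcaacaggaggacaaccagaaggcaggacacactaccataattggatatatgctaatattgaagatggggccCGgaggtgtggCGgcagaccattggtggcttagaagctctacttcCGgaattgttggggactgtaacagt
Tex13b, chrX:140813434-140813683, minus strand: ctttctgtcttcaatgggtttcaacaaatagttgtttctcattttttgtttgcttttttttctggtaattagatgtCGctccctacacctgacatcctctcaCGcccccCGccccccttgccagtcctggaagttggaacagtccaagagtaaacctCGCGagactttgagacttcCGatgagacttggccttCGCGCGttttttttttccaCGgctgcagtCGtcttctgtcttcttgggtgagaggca
Cox7b2, chr5:71548206-71548455, minus strand: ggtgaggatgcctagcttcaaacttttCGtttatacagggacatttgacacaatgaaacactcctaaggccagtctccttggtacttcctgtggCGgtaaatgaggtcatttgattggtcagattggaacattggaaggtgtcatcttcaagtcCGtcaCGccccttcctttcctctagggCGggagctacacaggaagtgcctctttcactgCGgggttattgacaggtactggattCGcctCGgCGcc
The Rhox2h window held 5 CpG dinucleotides, the Cox7b2 window 9 and the Tex13b window 11. Only 3 of the 17 genes are shown, so no comparison with other genes is drawn.

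The X chromosome held the largest share of genes at least 2-fold lower. Of 500 tested X-linked genes, 140 (28.0%) were at least 2-fold lower, against 11.7% of all tested genes, and their median was -0.51 (-0.31 after scaling). No autosome passed 14.9% lower (chromosome 9). The medians of chromosomes 19 and 13 were the highest, 0.11 and 0.09 as deposited and 0.31 and 0.28 after scaling. In runs of 30 neighbouring tested genes, the lowest X-linked run lay at chrX:36873900-47965868 (mm10), where 20 of 30 genes were at least 2-fold lower and the median was -1.23 (-1.01 after scaling). It held the Rhox2 genes and also the broadly expressed Cul4b (-1.63), Stag2 (-1.51), Lamp2 (-1.41) and Xiap (-1.22). The lowest run on the scaled values lay at chr14:41573211-45003820, with 19 of 30 at least 2-fold lower, but most of its members were predicted gene models of a repeated family whose copies can share reads. On chromosome 9 a run at chr9:40606416-44288615 held Nectin1 (-4.30), Clmp (-3.51), Arhgef12 (-3.04) and Sc5d (-2.93), with 15 of 30 at least 2-fold lower. Xist, the RNA of the inactive X chromosome, averaged 40.3 ± 5.68 TPM in CT26 and 24.7 ± 4.29 in CT26NYESO1 (SD, n = 3 each; -0.69, adjusted p = 0.00352). Whether host or tumour cells carried these differences was not tested.

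**Figure D2:**
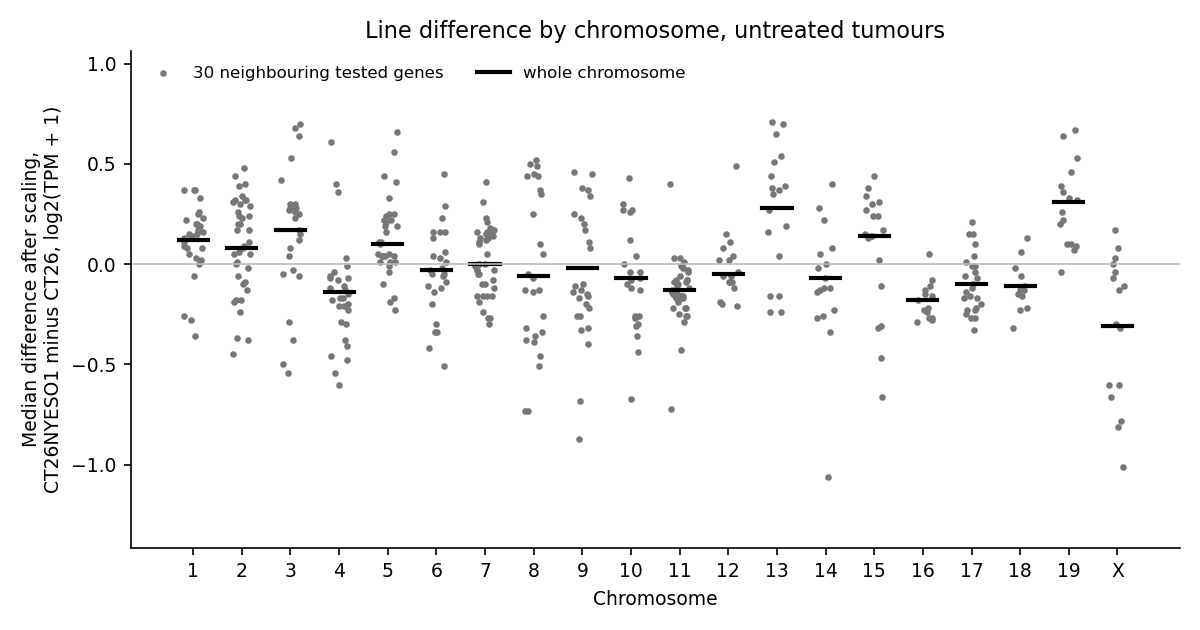
Each grey point is the median difference, CT26NYESO1 minus CT26 in log2(TPM + 1) after median-of-ratios scaling, of 30 neighbouring tested genes, and each black bar is the median of a whole chromosome. The X chromosome has the lowest bar at -0.31, and chromosomes 19 and 13 have the highest at 0.31 and 0.28.

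Transcripts of blood vessels were lower in CT26NYESO1 tumours. All 15 tested endothelial markers were called lower, 14 of them at least 2-fold on both scales, and the median was -2.06 (-1.84 after scaling). The summed level of the list was 701 to 771 TPM in the CT26 libraries and 147 to 192 TPM in the CT26NYESO1 libraries. Cdh5, the endothelial cadherin, was at 118, 104 and 123 TPM against 15.3, 18.9 and 14.5 TPM (-2.76 ± 0.11, adjusted p = 1.23e-07). Pecam1 (CD31) was at 106, 98.6 and 125 TPM against 25.9, 30.9 and 21.5 TPM (-2.04 ± 0.14), and Kdr, the main VEGF receptor, fell by 2.27. Flt1, the other VEGF receptor named, differed least (-0.49; -0.28 after scaling, where it was no longer called). In bulk tissue fewer cells of a type and less RNA per cell cannot be told apart, here or for any list below. Nor can RNA of tumour cells be told from that of host cells.

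Matrix and stromal genes fell in part. Of 19 tested collagen genes, 11 were at least 2-fold lower and 2 higher, Col4a5 and Col12a1, with a median of -1.62 (-1.39 after scaling). Col3a1, a fibrillar collagen, was at 4800, 4702 and 3107 TPM in CT26 and at 320, 468 and 210 TPM in CT26NYESO1 (-3.70 ± 0.33, adjusted p = 0.000196). Col5a2 (-4.60), Col7a1 (-4.37) and Col1a1 (-2.26) fell too, whereas the vessel wall chain Col4a1 fell by 0.87. Of 18 fibroblast markers, 8 were at least 2-fold lower and 2 higher (median -0.71, -0.50 after scaling). Mmp2, gelatinase A, was at 874, 701 and 576 TPM against 21.2, 21.9 and 16.7 TPM (-5.09 ± 0.16), and Pi16 fell by 3.40. Il33, an alarmin cytokine, rose by 2.04 and the chemokine Cxcl12 by 1.38, and not every fibroblast marker fell: Thy1 rose by 0.96. Without CT26NYESO1 replicate 3 the number at least 2-fold higher was 4. Of 12 tested pericyte and smooth muscle genes 6 were at least 2-fold lower and none higher, or 1 higher without CT26NYESO1 replicate 2 (median -1.01, -0.82 after scaling), with Pdgfrb at -2.38 and Mcam at -2.17. Among 21 tested matrix proteases and their inhibitors, 7 were at least 2-fold lower, led by Adamts5 (-5.25), and 3 higher, among them Mmp12 (2.16) and the urokinase receptor Plaur (1.48).

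Some markers of tissue that can adjoin a subcutaneous tumour differed too. Of 4 tested adipocyte genes, 1 was called higher and 3 lower, 2 of them at least 2-fold lower. Fabp4, a fatty acid carrier, was at 639, 636 and 635 TPM in CT26. In CT26NYESO1 it was at 38.7, 61.0 and 35.7 TPM (-3.83 ± 0.18, adjusted p = 2.85e-06), and Plin4 fell by 2.17. The 10 listed adipocyte genes summed to 665, 655 and 657 TPM in CT26, most of it from Fabp4. Of 4 tested skeletal muscle genes of 15 listed, Eno3 rose by 2.12. The summed level of the muscle list was 35.8 to 37.9 TPM in CT26 and 265, 128 and 313 TPM in CT26NYESO1 replicates 1, 2 and 3, and without replicate 2 all 4 tested members were at least 2-fold higher. Keratinocyte markers summed to 3.56 to 5.40 TPM over the 6 libraries and nerve markers to 8.51 to 11.2 TPM.

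General leukocyte markers differed little in level. Of 12 tested pan-leukocyte genes none differed by 2-fold, 2 were called higher and 4 lower (1 to 6 lower when any 1 library was left out), and the median was -0.28 (-0.06 after scaling). Over all tested genes 21.1% were called higher and 44.8% lower. Ptprc, the pan-leukocyte antigen CD45, averaged 79.5 and 53.6 TPM (-0.58), and its call was lost after scaling (-0.36, adjusted p = 0.0662). Of 20 tested macrophage markers, 3 were called higher and 6 lower (4 to 8 lower when any 1 library was left out). At least 2-fold, 2 were higher and 1 lower, and the median was -0.05 (0.17 after scaling). The list summed to 10076, 9803 and 10126 TPM in CT26 and to 7406, 7452 and 7555 TPM in CT26NYESO1. Arg1, the arginase of alternatively activated macrophages, was at 32.8, 32.2 and 42.5 TPM in CT26 and at 217, 366 and 493 TPM in CT26NYESO1 (3.22 ± 0.31, adjusted p = 0.000201). Every CT26NYESO1 library was several times above every CT26 library. Cd163, a scavenger receptor of tissue macrophages, rose by 1.82, with 47.7 TPM in CT26NYESO1 replicate 2 against 13.8 and 13.6 TPM in the others; its call was lost without any 1 of the CT26 libraries (1.74 to 1.86, adjusted p = 0.0513 to 0.0608). Gpnmb fell by 2.40. Of 15 tested monocyte genes 3 were called higher and 8 lower (median -0.52, -0.30 after scaling). At least 2-fold, 6 were lower (5 on both scales) and none higher, or 1 higher without CT26 replicate 3. The 6 included Cx3cr1, the fractalkine receptor of patrolling monocytes (-2.39), and Plac8 (-1.90). Vcan (-4.05) and Fn1 (-1.80), which matrix-producing cells also express, were among them too.

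Lymphocyte lists did not move together. The plasma cell and immunoglobulin list summed to 524, 476 and 507 TPM in CT26 and to 219, 213 and 190 TPM in CT26NYESO1. Of its 6 tested genes 1 was called higher and 3 lower (median -0.94, -0.72 after scaling). Of 6 tested B cell genes 1 was called higher and 2 lower. T cell genes summed to 80.6, 102 and 114 TPM in CT26 and to 218, 114 and 167 TPM in CT26NYESO1. Of 20 tested T cell genes 4 were called higher and none lower, with 1, Cd3g, at least 2-fold (median 0.38, 0.57 after scaling). That count rested on single libraries: 11 T cell genes were called higher without CT26NYESO1 replicate 2, 1 without CT26 replicate 1 and 2 without CT26NYESO1 replicate 3, and the number at least 2-fold higher was then 7, 0 and 1 in turn (0 without CT26NYESO1 replicate 1). Cd3g lost its call without CT26 replicate 1 or 3 or without CT26NYESO1 replicate 1 or 3 (0.96 to 1.50). Cd8a, the coreceptor of cytotoxic T cells, was at 0.426, 0.811 and 1.27 TPM in CT26 and at 4.69, 1.85 and 4.40 TPM in CT26NYESO1 (1.30 ± 0.29, adjusted p = 0.00437). Ifng, the gene of interferon-gamma, was at 0.327, 0.696 and 1.74 TPM against 4.26, 3.29 and 5.04 TPM (1.49 ± 0.26, adjusted p = 0.00119). The groups did not overlap for either gene, as for 10767 of the 15264 tested genes. CT26NYESO1 replicate 2 was the lowest of its group for both genes. Of 19 tested CD8 T cell and cytotoxic genes 4 were called higher and 2 lower (median 0.37, 0.57 after scaling). Cd8a, Ifng and Cd8b1 (1.04) were the 3 at least 2-fold higher, and none was 2-fold lower. That number was 2 without CT26 replicate 1 or 3 or without CT26NYESO1 replicate 1 or 3. Without CT26NYESO1 replicate 2, 7 were called higher, and the number called lower was 1 to 3 when any 1 library was left out. Gzmb, granzyme B, averaged 42.7 and 45.3 TPM and was not called. No natural killer or regulatory T cell gene differed by 2-fold among 13 and 8 tested, though 1 natural killer gene did without CT26NYESO1 replicate 2. Of 9 tested mast cell and basophil genes, Gata2 (2.34) and Fcer1a (1.44) rose, and 5 members were at least 2-fold higher without CT26 replicate 2. Tpsb2, a mast cell protease, was not called as deposited but was called higher after scaling (1.61, adjusted p = 0.0469) and without CT26 replicate 2 (1.74, adjusted p = 0.0423). The summed level of that list was 136 to 387 TPM in CT26 and 413 to 855 TPM in CT26NYESO1.

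Type I interferon-stimulated genes were mostly lower, while few interferon-gamma-induced genes were called. Of 33 tested type I interferon-stimulated genes, 28 were called lower and none higher, 12 of them at least 2-fold and 10 on both scales, with a median of -0.86 (-0.64 after scaling). Rsad2, the antiviral enzyme viperin, was at 83.2, 95.7 and 63.7 TPM in CT26 and at 18.4, 19.2 and 17.2 TPM in CT26NYESO1 (-2.07 ± 0.14, adjusted p = 4.31e-06). Ifit1 (-1.98), Oasl1 (-1.93), Usp18 (-1.54) and Isg15 (-1.46) fell with it. Of 29 tested interferon-gamma-induced genes, 5 were called higher and 3 lower, 3 of them at least 2-fold higher and none lower, with a median of 0.21 (0.42 after scaling). Batf2, a transcription factor of activated macrophages, was at 18.3, 21.8 and 23.6 TPM against 90.0, 43.6 and 118 TPM (1.83 ± 0.37, adjusted p = 0.00631), and Gbp4 rose by 1.46 and Serpina3g by 1.22. Gbp4 and Serpina3g lost their calls without CT26 replicate 1 or 2 or without CT26NYESO1 replicate 1 or 3 (1.21 to 1.55 and 0.96 to 1.29). The summed level of the interferon-gamma list was 3034 to 3726 TPM in CT26 and 5086, 2644 and 4818 TPM in CT26NYESO1 replicates 1, 2 and 3. CT26NYESO1 replicate 2 was thus below every CT26 library on this sum. Without it 15 of the 29 genes were called higher, 7 of them at least 2-fold. The number called higher was 1 without CT26 replicate 1, CT26 replicate 2 or CT26NYESO1 replicate 3 and 2 without CT26NYESO1 replicate 1, and the number called lower was 0 without CT26 replicate 2 and 1 without CT26 replicate 1 or 3. Without any 1 of CT26 replicates 1 and 2 and CT26NYESO1 replicates 1 and 3, 1 gene was at least 2-fold higher (5 without CT26 replicate 3). Whether the lists differed from each other was not tested.

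Classical MHC class I genes split. H2-D1 was at 982, 1015 and 995 TPM in CT26 and at 2375, 1631 and 2471 TPM in CT26NYESO1 (1.09 ± 0.15, adjusted p = 0.000382), whereas H2-K1 was at 2199, 2279 and 2171 TPM against 1779, 1169 and 1660 TPM (-0.55 ± 0.15, adjusted p = 0.0113). After scaling H2-K1 differed by -0.33 and was no longer called (adjusted p = 0.0727). Class I genes are similar in sequence and reads can be shared between them. B2m, their common light chain, averaged 3640 and 3437 TPM and was not called as deposited. B2m was called lower under quantile normalization alone (-0.50, adjusted p = 0.00512). Of the 25 tested genes of the class I pathway 2 were called higher and 8 lower, beside 21.1% and 44.8% of all tested genes. The number lower was 5 without CT26 replicate 2 and up to 12 without 1 library. H2-D1 was at least 2-fold higher and 1 gene was at least 2-fold lower, Canx, a chaperone (-1.08, -0.86 after scaling). Without CT26NYESO1 replicate 2, 7 genes of this list were called higher and 9 lower, 2 of them at least 2-fold higher, and without CT26NYESO1 replicate 3 H2-D1 was under 2-fold. No class II gene was called higher and 1 was called lower, although the median over 10 was 0.77 (0.98 after scaling). The lower call was lost without CT26 replicate 1 or 2 or without CT26NYESO1 replicate 2. Without CT26 replicate 3, 6 of the 10 were called higher, and without CT26NYESO1 replicate 2, 3 were. The list summed to 1686, 1983 and 2838 TPM in CT26 and to 4070, 2109 and 3447 TPM in CT26NYESO1.

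Checkpoint and costimulatory genes went both ways, 5 of 21 tested at least 2-fold higher and 4 lower, with 3 higher without CT26 replicate 1 or without CT26NYESO1 replicate 1 or 3. Cd274, encoding PD-L1, was at 18.2, 24.2 and 22.3 TPM in CT26 and at 56.4, 29.5 and 63.1 TPM in CT26NYESO1 (1.11 ± 0.29, adjusted p = 0.0138). Pdcd1lg2, encoding PD-L2, rose by 1.80, Cd80 by 1.46, Tigit by 1.30 and Lag3 by 1.01. Cd200, an inhibitory ligand (-1.89), Cd276, or B7-H3 (-1.44), Nt5e, the ectoenzyme CD73 (-1.35), and Lgals9 (-1.20, and -0.98 after scaling) fell.

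More chemokine genes of the CC family were called higher than lower. Of 15 tested, 9 were called higher and 3 lower, 4 of them at least 2-fold higher and 1 lower, with a median of 0.50 (0.72 after scaling). Ccl8, a monocyte attractant, was at 116, 149 and 77.9 TPM in CT26 and at 523, 631 and 655 TPM in CT26NYESO1 (2.43 ± 0.23, adjusted p = 0.000118). Ccl6 rose by 1.84, Ccl11, an eosinophil attractant, by 1.30, and Ccl17 fell by 2.20. In the CXC and CX3C list of 13 tested, 1 was at least 2-fold higher, Cxcl12, and 3 lower. Cx3cl1, the ligand of Cx3cr1, was at 72.7, 62.6 and 59.7 TPM in CT26 and at 1.68, 1.21 and 1.46 TPM in CT26NYESO1 (-4.75 ± 0.11, adjusted p = 1.26e-08), and ligand and receptor were thus both lower. Cxcl3 and Cxcl5, ligands of the neutrophil receptor Cxcr2, differed by -3.36 and -2.38. Of 20 tested cytokines 5 were at least 2-fold higher and 1 lower. Tnfsf9, the ligand of the T cell costimulator 4-1BB, was at 2.45, 1.37 and 1.73 TPM against 22.1, 20.7 and 24.5 TPM (3.05 ± 0.15, adjusted p = 5.24e-07), and Il11 rose by 2.09 and Lif by 1.89, both cytokines of the IL-6 family. Tnfsf13b, the B cell survival factor BAFF, fell by 1.86. Complement genes divided as well, 4 of 23 at least 2-fold higher, including C1s1 (1.63), Serping1 (1.63) and C3 (1.35), and 5 lower, including Hc (-2.18), C2 (-2.16) and Cfb (-1.40).

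Genes of the translation and energy machinery moved by small amounts in many members. Of 32 tested cytosolic ribosomal protein genes 31 were called higher and none lower, 3 at least 2-fold (1 without CT26 replicate 2 and 5 without CT26 replicate 3), with a median of 0.69 (0.91 after scaling). Rplp1 was at 1647, 1488 and 1735 TPM in CT26 and at 3299, 3541 and 3555 TPM in CT26NYESO1 (1.10 ± 0.07, adjusted p = 2.52e-06). All 13 mitochondrially encoded protein genes were called higher (median 0.49, 0.71 after scaling), and mt-Co1 was at 7495, 8219 and 7835 TPM against 14792, 14822 and 14068 TPM (0.89 ± 0.06). The 29 nuclear-encoded respiratory chain genes had 14 calls higher and 7 lower and no 2-fold difference (median 0.14, 0.36 after scaling). Of 24 hypoxia and glycolysis genes 14 were called higher and 3 lower, 3 of them at least 2-fold higher, among them Ankrd37 (1.66) and Pdk1 (1.37), and Egln3, a hypoxia-induced prolyl hydroxylase, fell (-2.10; list median 0.55, 0.77 after scaling). Of 19 tested cholesterol synthesis genes 5 were called higher and 4 lower (2 to 5 lower when any 1 library was left out). At least 2-fold, 1 was higher and 2 lower, around a median of -0.03 (0.18 after scaling). In this pathway the late enzyme Sc5d fell (-2.93) and Msmo1 rose by 1.19. Sc5d was at 216, 205 and 215 TPM in CT26 and at 24.3, 28.8 and 27.7 TPM in CT26NYESO1. Of 19 Nrf2 target and glutathione genes 6 were at least 2-fold lower, led by Nqo1 (-2.69), and 1 higher, Slc7a11 (1.27), with a median of -0.41 (-0.19 after scaling).

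**Figure D3:**
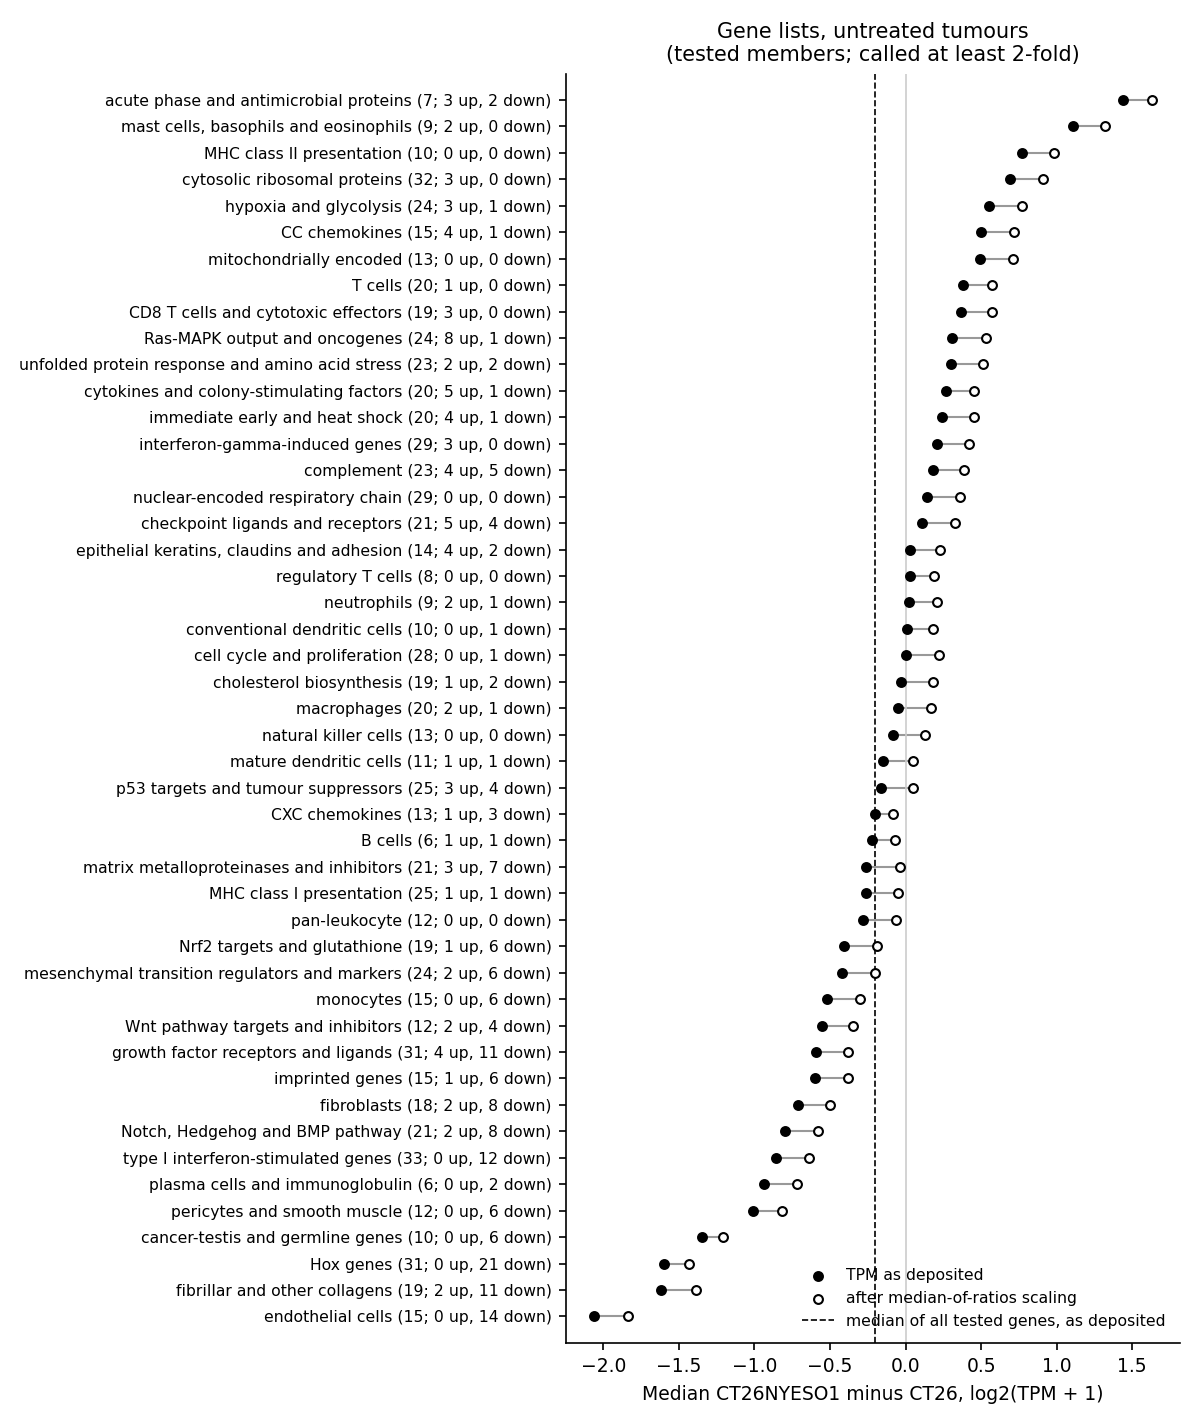
Each row is a gene list with at least 6 tested members, with the number tested and the numbers at least 2-fold higher and lower in brackets. Filled points are median differences as deposited and open points after median-of-ratios scaling, CT26NYESO1 minus CT26 in log2(TPM + 1), and the dashed line is the median of all tested genes at -0.20. The endothelial list lies lowest at -2.06, followed by collagens at -1.62 and Hox genes at -1.60.

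**Figure D4:**
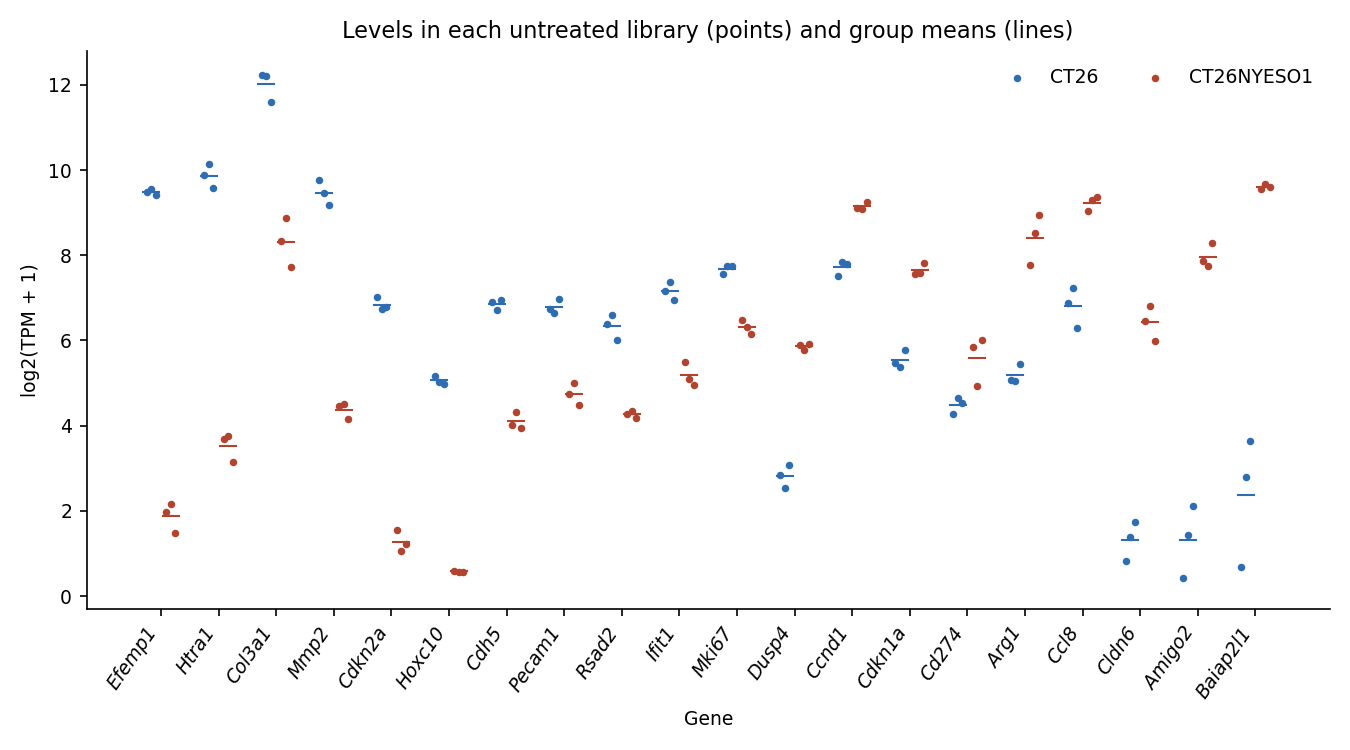
Points are the 3 untreated libraries of each line and short lines their means, in log2(TPM + 1), for 20 genes described in the text. The groups do not overlap for any of the 20 genes, as for 10767 of the 15264 tested genes. Some of the 20 were named by a rule that requires this. The spread within CT26 is widest for Baiap2l1, from 0.610 to 11.5 TPM.

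The OK-432 libraries of both lines, which share no library with the untreated ones, gave a second reading of the line difference. There 3205 genes (21.0%) were called higher in CT26NYESO1 and 7295 (47.8%) lower, 935 (6.13%) and 1817 (11.9%) of them at least 2-fold. Of the 858 genes at least 2-fold higher in untreated tumours, 829 (96.6%) were called higher with OK-432 and none lower. Of the 1780 at least 2-fold lower, 1754 (98.5%) were called lower and none higher. Baiap2l1 differed by 7.73 with OK-432 (7.24 untreated), Cdkn2a by -6.22 (-5.57), Cdh5 by -2.20 (-2.76), Arg1 by 3.10 (3.22), Ccl8 by 2.29 (2.43) and Cd274 by 1.40 (1.11). The list medians with OK-432 were -1.75 for endothelial genes, -1.44 for collagens, -1.61 for Hox genes and -0.79 for type I interferon-stimulated genes. Some other lists had medians further from the untreated ones, and not all are given. They included skeletal muscle at -0.04 (1.78 untreated, 4 tested genes), neutrophils at 1.16 (0.02) and CXC chemokines at 0.31 (-0.20). Hypoxia and glycolysis genes were at 0.96 (0.55), growth factor receptors and ligands at -0.20 (-0.59) and macrophages at -0.43 (-0.05). Interferon-gamma-induced genes were at -0.01 (0.21). Of 9 tested neutrophil genes in untreated tumours, 2 were at least 2-fold higher and 1 lower (median 0.02, 0.21 after scaling). S100a9 and Cxcl3 are given because their values lay apart. S100a9, a subunit of the neutrophil protein calprotectin, was at 9.47, 9.83 and 12.2 TPM in untreated CT26 and at 1.78, 1.72 and 1.95 TPM in untreated CT26NYESO1 (-2.02 ± 0.13, adjusted p = 2.18e-06), and differed by 1.16 with OK-432, where it was not called (adjusted p = 0.34). Cxcl3 differed by -3.36 untreated and by -0.01 with OK-432 (adjusted p = 0.992). Whether the line difference itself changed with OK-432 was not tested for these genes.

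**Figure D5:**
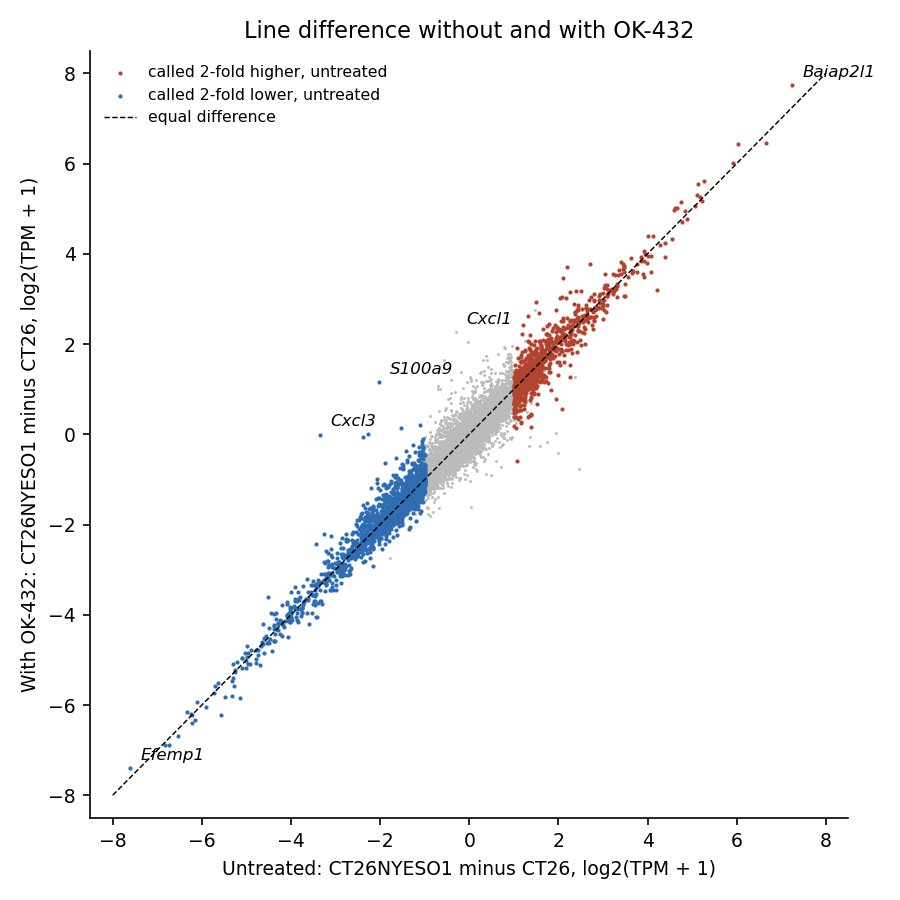
Each point is a tested gene, with the line difference CT26NYESO1 minus CT26 in log2(TPM + 1) without OK-432 on the horizontal axis and with OK-432 on the vertical axis. Coloured genes were at least 2-fold higher or lower in untreated tumours, and the dashed line marks equal differences. S100a9, at -2.02 and 1.16, and Cxcl3, at -3.36 and -0.01, lie off the line.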

How the data were processed

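RNA was measured in bulk tumour libraries made with a stranded mRNA kit after TRIzol extraction, per the labels' protocols. The authors deposited 1 table of TPM values, and the tools in the submitters' processing notes are Trim Galore 0.6.5, STAR 2.7.3a, StringTie 2.1.2, with the build mm10. For annotation and strand setting nothing is stated, so reads of a gene and an overlapping antisense gene may not be told apart. Depth is unknown.

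From these values log2(TPM + 1) was computed and fitted with limma 3.58.1 in R 4.3.3 (trended, robust) on the 6 untreated libraries alone, which left 4 residual degrees of freedom. Genes that reached 1 TPM in 3 or more of the 6 were kept. The OK-432 libraries were fitted the same way on the same genes. Median-of-ratios factors were 1.08 to 1.09 in untreated CT26 and 0.918 to 0.946 in untreated CT26NYESO1. Gene positions come from GENCODE M21, matched by symbol for 14972 of the tested genes. Promoter windows come from the RefSeq table of build GRCm38.p6, and 10416 of the tested genes (68.2%) had one. A comparison of CpG content between the called sets is void at that share (80% needed) and is not reported. The fit was run on simulated data in which few genes differed. That run cannot speak to a difference across most genes, as found between these lines.

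Members and gene lists were chosen with earlier results of these data known. Named genes are the 15 largest called rises and falls of at least 2-fold whose groups do not overlap and whose mean over the 6 reaches 5 TPM, leaving out predicted gene models, with up to 4 called members per direction of each list, a panel, and genes listed at 0 in 1 line with at least 5 TPM in the other. Some genes that meet this rule are not reported here. Others are context for a neighbouring value or said to be picked with their values known. Replicate numbers did not pair the libraries (correlations of same-numbered deviations -0.03, -0.01 and -0.01).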

Additional observations from a re-analysis of the deposited data

How the results depend on the processing

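The count of genes called higher in untreated CT26NYESO1 was 3217, and 4909 under quantile normalization. In the OK-432 libraries it was 3205, and 4940 under median-of-ratios scaling and 4973 under quantile normalization. These alternatives centre the libraries on one another. A pseudocount of 5 left 426 genes at least 2-fold higher and 973 lower (486 and 1010 with OK-432), and testing only genes of at least 5 TPM left 566 higher, since fewer genes were tested. The other alternatives kept every count of genes within 1.5 times. Leaving out 1 library at a time gave 2891 to 3042 calls higher and 6274 to 6547 lower (2903 to 3146 and 6701 to 7196 with OK-432), 854 to 899 at least 2-fold higher and 1738 to 1874 lower (894 to 982 and 1772 to 1881 with OK-432), and a rise in the mitochondrial share of 1.78 to 2.13 percentage points. A fit with the replicate number as a block, although the numbers did not pair the libraries, called 3087 genes higher and 6635 lower (3178 and 7199 with OK-432). Among 200 genes named in the text, 194 were called and 5 of these lost the call without some 1 library. The block cost 1 call, that of Cd3g. Of the genes not called, 3 changed sign: Cdh1 to 0.09 under median-of-ratios scaling and 0.19 under quantile normalization, and between -0.09 and 0.10 without 1 library; B2m to 0.13 under median-of-ratios scaling and between -0.16 and 0.03 (-0.50 and called under quantile normalization); and Gzmb between -0.28 and 0.38. Depth is unknown, so no detection limit is given, and with 3 libraries per line the counts of T cell genes called rested on single libraries.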
